A study of Mus musculus with 9 samples.

Results

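H3K27ac, the acetylated form of lysine 27 of histone H3 that marks active promoters and enhancers, was compared between forelimb buds of Shh-/- and Shh-/-;Gli3-/- mouse embryos, to ask what removing GLI3 changed when Sonic hedgehog (SHH) was absent from both genotypes. The comparison used 6 of the 9 samples of the series, 2 H3K27ac replicates and 1 input for each genotype, and the members were the peaks of the 1 list deposited for each genotype: 32085 Shh-/- peaks and 34641 Shh-/-;Gli3-/- peaks, 66726 in all. Each MicroChIP, a chromatin immunoprecipitation for small cell numbers, used a single pair of forelimb buds from an embryo at E10.5, with 33 to 34 somites, and libraries had 12 cycles of PCR. The labels give the strain background as mixed, whereas the methods of the study place both mutant alleles on Swiss Webster. Both genotypes were homozygous for a null allele of Shh, the double mutants carried in addition the Xt-J deletion of Gli3, and all cells of the limb bud were germline mutant. The sample titles gave the genotypes, whereas the genotype entry of the labels read wild type for every sample.

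In the limb bud, SHH is secreted by a group of posterior mesenchymal cells. It binds PTCH1, releases Smoothened and stops the processing of GLI proteins into repressors, of which GLI3 is the main one in the limb. Without SHH, GLI3 repressor acts throughout the bud and posterior genes such as Hand2 and the 5′ Hoxd genes are reduced, while loss of Gli3 is known to allow digits to form without SHH.

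A peak list is a single call with no value per replicate, so differences could not be weighed against embryo-to-embryo spread and no p-value is given. Intervals are Wilson 95% intervals over peaks and cover counting error only. The depth of the libraries is unknown from the lists, and fewer acetylating cells cannot be told apart from less acetylation per cell. The lists differed in breadth: the Shh-/- list covered 12.9 Mb with a median width of 250 bp, and the Shh-/-;Gli3-/- list 17.1 Mb with a median width of 300 bp. At a false discovery rate (FDR) below 0.05 lay 72.4% of Shh-/- and 83.4% of Shh-/-;Gli3-/- peaks. The lists also differed on the sex chromosomes. The X chromosome held 697 Shh-/- and 1458 Shh-/-;Gli3-/- peaks, a ratio of 2.09 against 0.937 to 1.16 on the autosomes, and the Y chromosome held 22 and 11. Around Xist, the RNA that silences an X chromosome in females, 900 bp were covered in Shh-/- and 2605 bp in Shh-/-;Gli3-/-, and the 4 Y-linked genes examined had less covered length in Shh-/-;Gli3-/-. Uty and Ddx3y, whose windows overlap, shared 1 Shh-/- peak of 450 bp that was absent at FDR below 0.05 and had no Shh-/-;Gli3-/- counterpart, Kdm5d had 100 and 0 bp, and Eif2s3y had a promoter peak in both lists, with 250 and 100 bp. The labels do not give the sex of the embryos, so sex and genotype cannot be told apart for X-linked genes.

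**Figure D1:**
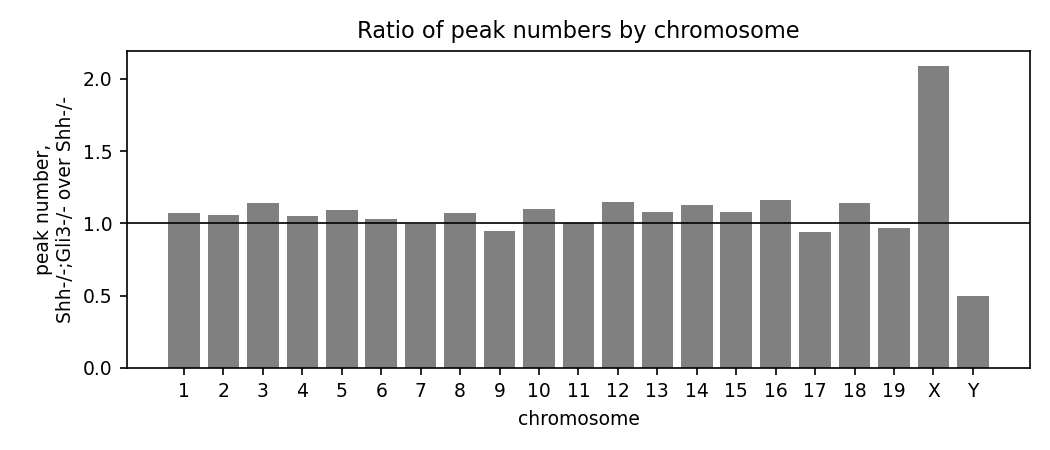
Ratio of the number of Shh-/-;Gli3-/- peaks to the number of Shh-/- peaks on each chromosome (linear axis from 0, line at equal numbers). The X chromosome stands at 2.09, the autosomes lie between 0.937 and 1.16, and the Y chromosome, with few peaks, is at 0.5.

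The 4 marker genes of the comparison were described first, by the length of peaks within the gene and 50 kb on each side (covered length). Hand2, a transcription factor of the posterior limb bud (chromosome 8, 57320983 to 57324633, mm10), had 2 Shh-/- peaks covering 1500 bp and 18 Shh-/-;Gli3-/- peaks covering 9150 bp, a 6.10-fold difference. Because the lists differed in breadth, differences are also given for lists matched on peak width, which leaves out the widest Shh-/-;Gli3-/- peaks, and for equal numbers of peaks with Shh-/-;Gli3-/- peaks narrowed to Shh-/- widths, an alternative chosen after seeing the data. The Hand2 difference of 7650 bp was 3000 bp with width matching and 5550 bp with narrowing. The promoter peak was 1300 bp wide in Shh-/- and 3450 bp in Shh-/-;Gli3-/-, and distal peaks covered 200 and 5050 bp. Thus both the promoter and the surrounding region were broader in the double mutant. Of its 15 distal Shh-/-;Gli3-/- peaks, 1 overlapped a Shh-/- peak.

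Ptch1, the SHH receptor and itself an HH target (chromosome 13, 63508328 to 63573598), had 6 Shh-/- peaks covering 1750 bp and 12 Shh-/-;Gli3-/- peaks covering 9100 bp, 5.20-fold more. The difference of 7350 bp was 4000 bp with peaks matched on width and 4800 bp with narrowed peaks. A single 3750 bp promoter peak in Shh-/-;Gli3-/- limb buds overlapped 5 of the Shh-/- peaks, the widest of which was 750 bp. Intronic and exonic peaks 36.0 to 39.0 kb from the nearest annotated start were listed only in the double mutant. By covered length, Ptch1 ranked 7844 in Shh-/- and 482 in Shh-/-;Gli3-/-, and Hand2 moved from 8932 to 477.

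Hoxd13, a 5′ Hoxd gene of the digits (chromosome 2, 74668310 to 74671599), had 18 Shh-/- peaks covering 16800 bp and 20 Shh-/-;Gli3-/- peaks covering 32750 bp in its window, 1.95-fold more. This difference of 15950 bp turned to -12900 bp when peaks were matched on width and was 5550 bp with narrowed peaks. The Shh-/- peaks began at position 74682300, inside Hoxd11, so that none lay over Hoxd13 itself. In Shh-/-;Gli3-/- limb buds, a 950 bp peak (74668100 to 74669049) lay over the Hoxd13 promoter and coding sequence. The widest peak of the window, 12050 bp from 74682100 to 74694149 over Hoxd11 and Hoxd10, spanned 4 Shh-/- peaks. Peaks of the cluster therefore reached the Hoxd13 gene in the double-mutant list and not in the Shh-/- list. Hhip, which encodes a secreted HH antagonist and is an HH target, had no Shh-/- peak and 4 narrow intronic Shh-/-;Gli3-/- peaks covering 650 bp. Its promoter had a peak in neither list.

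**Figure D2:**
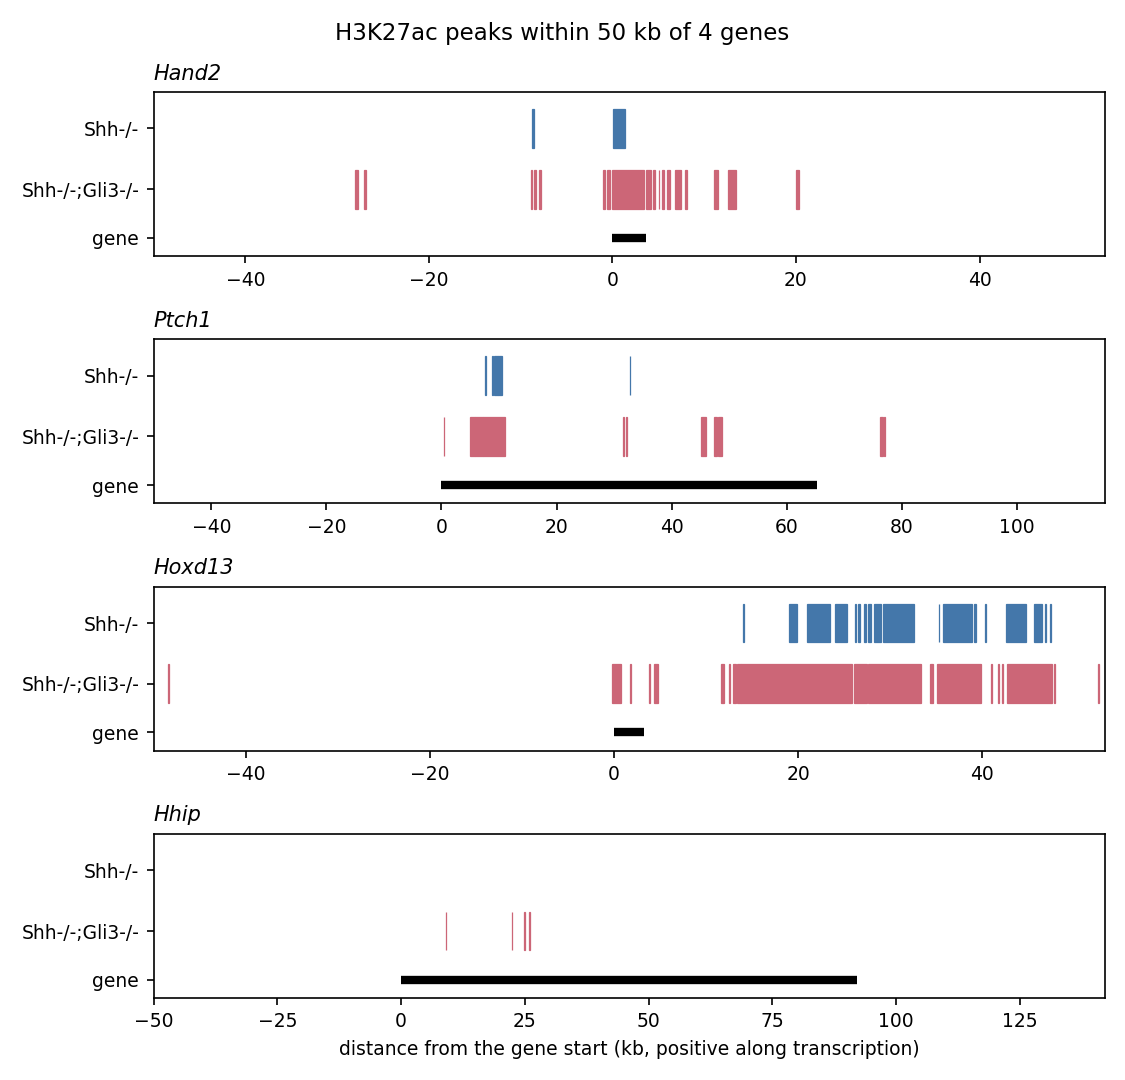
Peaks of the Shh-/- (blue) and Shh-/-;Gli3-/- (red) lists around Hand2, Ptch1, Hoxd13 and Hhip, by distance from the annotated gene start in kb; black bars are the genes. Hand2 has 2 Shh-/- and 18 Shh-/-;Gli3-/- peaks, and the Shh-/- peaks near Hoxd13 begin downstream of the gene.

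The promoter sequences of the first 3 markers are shown because they lay within, or at the edge of, these peaks (RefSeq, GRCm38.p6, 250 bases before to 50 after the start, on the strand of the gene). Each of the Hand2 and Ptch1 promoters overlapped peaks of both lists, and the Hoxd13 promoter a Shh-/-;Gli3-/- peak only. None of them held the GLI motif GACCACCCA or the relaxed GACCNCCCA on either strand.
Hand2 promoter, chr8:57320733-57321032, plus strand: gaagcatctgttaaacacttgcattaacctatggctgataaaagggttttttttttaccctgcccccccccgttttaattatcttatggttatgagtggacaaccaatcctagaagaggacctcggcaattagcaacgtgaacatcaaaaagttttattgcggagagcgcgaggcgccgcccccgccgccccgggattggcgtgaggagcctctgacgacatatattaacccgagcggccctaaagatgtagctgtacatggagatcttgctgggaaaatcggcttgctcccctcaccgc
Ptch1 promoter, chr13:63565686-63565985, minus strand: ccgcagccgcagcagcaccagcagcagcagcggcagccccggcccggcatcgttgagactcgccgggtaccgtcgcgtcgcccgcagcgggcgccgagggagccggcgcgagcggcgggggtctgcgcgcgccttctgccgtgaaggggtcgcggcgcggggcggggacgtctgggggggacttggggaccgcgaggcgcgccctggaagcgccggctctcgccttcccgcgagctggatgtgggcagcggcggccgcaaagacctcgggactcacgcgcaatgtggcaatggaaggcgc
Hoxd13 promoter, chr2:74667975-74668274, plus strand: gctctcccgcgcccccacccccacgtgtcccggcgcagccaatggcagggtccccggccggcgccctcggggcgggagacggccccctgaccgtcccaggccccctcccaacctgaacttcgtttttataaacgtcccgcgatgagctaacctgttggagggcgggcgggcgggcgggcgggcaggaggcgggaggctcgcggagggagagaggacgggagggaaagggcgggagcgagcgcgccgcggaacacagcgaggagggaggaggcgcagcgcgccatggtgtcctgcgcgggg

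Of the deleted genes, Shh had no peak in either list. At Gli3, the covered length was 7200 bp in Shh-/- and 14250 bp in Shh-/-;Gli3-/- limb buds. Divided into 3 equal parts, the 5′ part of the gene had 5765 and 12015 bp, the middle part 100 and 600 bp, and the 3′ part 250 bp in Shh-/- and 0 bp in Shh-/-;Gli3-/-. The Xt-J deletion removes the 3′ part of Gli3, but the 2 Shh-/- peaks there were narrow and weak, so the lists check the deletion only in part. Actb, a ubiquitous control, had 4050 and 5450 bp.

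Across the genome, promoters were largely shared and distal peaks were not. Of the Shh-/- peaks, 61.2% (60.7 to 61.7%) overlapped a Shh-/-;Gli3-/- peak by at least 1 bp, and of the Shh-/-;Gli3-/- peaks 49.4% (48.9 to 50%) overlapped a Shh-/- peak. Promoter peaks, those within 2 kb upstream or 1 kb downstream of the start of a protein-coding transcript, were overlapped at 79.6% in Shh-/- and 82.0% in Shh-/-;Gli3-/-. For distal peaks the shares were 43.8% and 28.5%. When each list was cut into 10 parts by file rank, 99.5% of Shh-/- and 99.1% of Shh-/-;Gli3-/- peaks of the strongest part were overlapped, and 33.3% and 17.6% of the weakest. Class, rank and width went together, so their parts in the overlap were not separated. In the strongest part 91.0% and 86.3% were promoter peaks, with median widths of 1000 and 1300 bp. In the weakest part 29.0% and 21.9% were, with a median width of 100 bp in both lists.

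**Figure D3:**
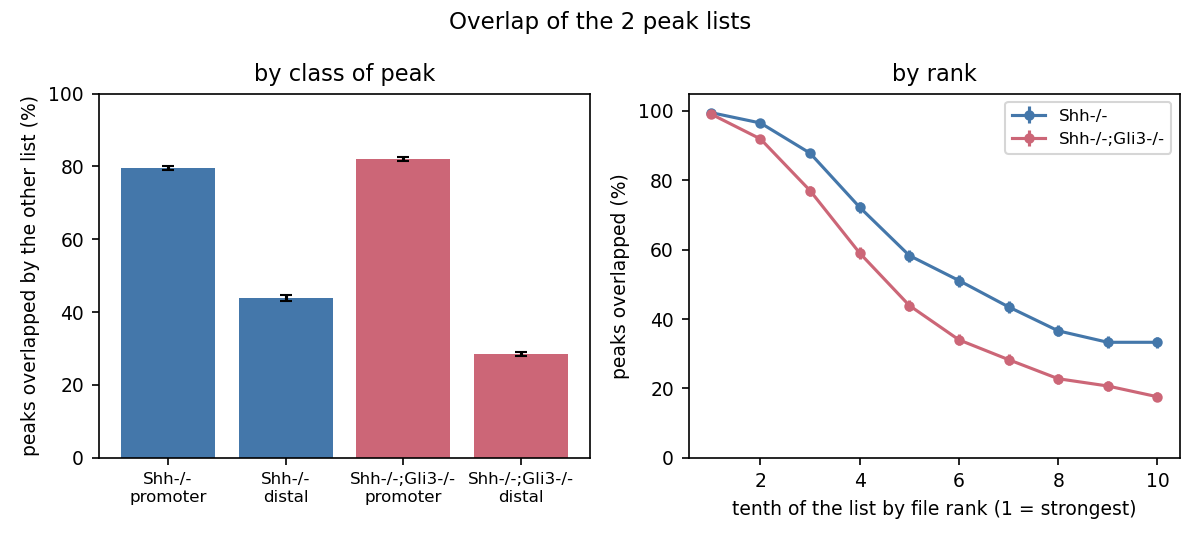
Share of peaks overlapped by the other list, by class (left, bars with Wilson 95% intervals) and by file rank in 10 equal parts of each list (right). Promoter peaks are near 80% in both lists (79.6% and 82.0%), distal peaks are at 43.8% and 28.5%, and the share falls with rank in both.

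Peaks found in one list alone were mostly distal. They were 12451 Shh-/- peaks (38.8%) and 17517 Shh-/-;Gli3-/- peaks (50.6%), of which promoters made up 25.6% (24.8 to 26.4%) and 13.9% (13.4 to 14.4%). Over all peaks of each list the promoter share was 48.6% in Shh-/- and 39.1% in Shh-/-;Gli3-/-, so the lists as a whole differed in the same direction. The median distance of distal only-peaks from a transcript start was 41.2 kb for the former and 62.7 kb for the latter. Covered length at distal peaks was 1.74 times as long in the double mutant (4.27 and 7.44 Mb), and at promoter peaks 1.12 times (8.67 and 9.70 Mb). With lists matched on peak width the ratios were 1.27 at distal peaks and 0.870 at promoters, so the order of the classes remained and the direction at promoters did not. Among 12738 peaks paired one to one, the Shh-/-;Gli3-/- peak was wider in 58.8% and narrower in 30.9%. A Shh-/-;Gli3-/- peak overlapped at least 2 Shh-/- peaks in 2714 cases, and the reverse occurred in 955. Distal peaks of at least 2000 bp numbered 38 in Shh-/- and 277 in Shh-/-;Gli3-/-.

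The strongest isolated distal peaks of the double mutant, with no Shh-/- peak within 10 kb, lay in introns of Camta1 (chromosome 4, 151170650 to 151171749), Galnt17 and Lrmda, in an intergenic region 176 kb from Spag17, and 451 kb from Tshz1. Those of Shh-/- lay in introns of Syn3 and Unc5a and in intergenic regions near Scrt2, Cd82 and Eif3j2. Of 15080 distal Shh-/-;Gli3-/- only peaks on assembled chromosomes 50.4% were isolated in this way, and of 9261 distal Shh-/- only peaks 44.3%. The strongest promoter-only peaks of the double mutant included Ccnd1, which encodes cyclin D1, and the X-linked Alg13 and Bhlhb9, besides Herc2 and the gene model Gm47283. Such a peak is 1 interval without overlap, and the same promoter can hold another peak of the other list. Ccnd1 had a promoter peak in both lists. The Gm47283 peak was listed on the Y chromosome (90785000 to 90785699), and whether its reads are particular to that chromosome was not tested. The strongest promoter-only peaks of Shh-/- were at Sept5, Casp9, Rab43, Nfatc1 and Lonp2.

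Genes were then compared by covered length. A gene was called where the lengths differed at least 2-fold and by at least 1000 bp. Of 17270 protein-coding genes with a covered base, 752 (4.35%) were called longer and 122 (0.706%) shorter in Shh-/-;Gli3-/-, with a median difference of 150 bp over all genes. By any amount, 60.9% were longer and 35.4% shorter. The 100 genes of largest covered length shared 72 members between the lists. In promoter peaks alone 211 genes were longer (1.36%) and 72 shorter (0.465%), and in distal peaks alone 859 (7.67%) and 123 (1.10%). On the X chromosome 141 of 589 genes were longer (23.9%) and 0 shorter. The excess of longer genes moved with peak width. With equal numbers of peaks and each Shh-/-;Gli3-/- peak narrowed around its strongest position to a Shh-/- width, 317 genes were longer (1.84%) and 343 shorter (2.0%). With covered length scaled to the same total, 286 were longer (1.66%) and 320 shorter (1.85%), and with peaks matched on width 438 (2.54%) and 1274 (7.39%), since the widest Shh-/-;Gli3-/- peaks then have no partner.

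Of the gene lists examined, posterior limb patterning genes held the largest share of called genes, 9 of 23 longer and 0 shorter, against 4.35% and 0.706% of all genes. The gene lists were chosen with earlier results of these data known, so this share describes the list and is not a test. The list also holds cell cycle genes. The median difference of its members was 4150 bp. With peaks matched on width it was -100 bp, with 9 members longer and 14 shorter, where of all genes 45.9% were longer and 50.8% shorter, with a median of -50 bp, so the excess of the list was not present in that setting. Besides Hand2, they were Hoxd11 and Hoxd10, Fmn1 (1200 and 9100 bp), which lies beside the BMP antagonist gene Grem1 and holds limb enhancers, the cell cycle genes Cdk6 (1200 and 7950 bp) and Ccnd1 (1600 and 5750 bp), Mycn (2900 and 6750 bp), Cyp1b1 (100 and 5550 bp) and the zinc finger gene Sall3 (2350 and 10600 bp). The Hoxd genes share 1 region and are not independent. With peaks matched on width the differences of Hoxd11 (-9050 bp), Hoxd10 (-8950 bp), Ccnd1 (-950 bp) and Mycn (-850 bp) turned negative, and those of the other 5 called genes did not. With narrowed peaks the differences of these 4 genes were 8750, 8750, 2800 and 2000 bp, so their direction depended on how width was handled. Grem1 itself had 200 and 550 bp. Not all members differed: Tbx2 had 2600 and 2500 bp, and Sall4 2050 and 2000 bp. A promoter peak was found in both lists for 15 members and in Shh-/-;Gli3-/- only for 4, Hoxd13, Hoxd12, Cyp1b1 and Prdm1. It was found in Shh-/- only for 1, Osr1, and in neither list for 3. Of all 21827 genes, 9654 had a promoter peak in both lists, 461 in Shh-/-;Gli3-/- only, 878 in Shh-/- only and 10834 in neither.

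Anterior limb patterning genes went the other way. Of 14 covered members 0 were called longer and 3 shorter, and 10 were shorter by any amount, with a median difference of -225 bp. Of all genes 4.35% were called longer and 0.706% shorter, and 35.4% were shorter by any amount, with a median of 150 bp. The homeobox gene Alx4 had 26 Shh-/- peaks covering 7650 bp and 5 Shh-/-;Gli3-/- peaks covering 1600 bp. Msx2, a BMP-responsive homeobox gene, had 7450 and 1950 bp, with 12 and 7 peaks, and its widest peak was 1600 bp in Shh-/- and 700 bp in Shh-/-;Gli3-/-. Irx3 had 4350 and 2000 bp. Their promoters had a peak in both lists, so that the difference was in the length and number of peaks. Asb4 and Zic2 were not shorter, with 4600 and 5700 bp and 8600 and 9200 bp. With peaks matched on width 12 of 14 covered anterior genes were shorter, with a median of -2425 bp, and the differences of Alx4, Msx2 and Irx3 were -6100, -5500 and -3100 bp. That setting did not set the anterior list apart. Of the proximal limb genes 12 of 14 were shorter in it, with a median of -2875 bp. Of the limb mesenchyme genes 11 of 15 were shorter, with a median of -1750 bp, and of all genes 50.8%. With narrowed peaks 14 of 14 anterior genes were shorter and 17 of 23 posterior genes longer, with medians of -1050 and 900 bp, where 27.3% of all genes were longer and 69.3% shorter, with a median of -250 bp.

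**Figure D4:**
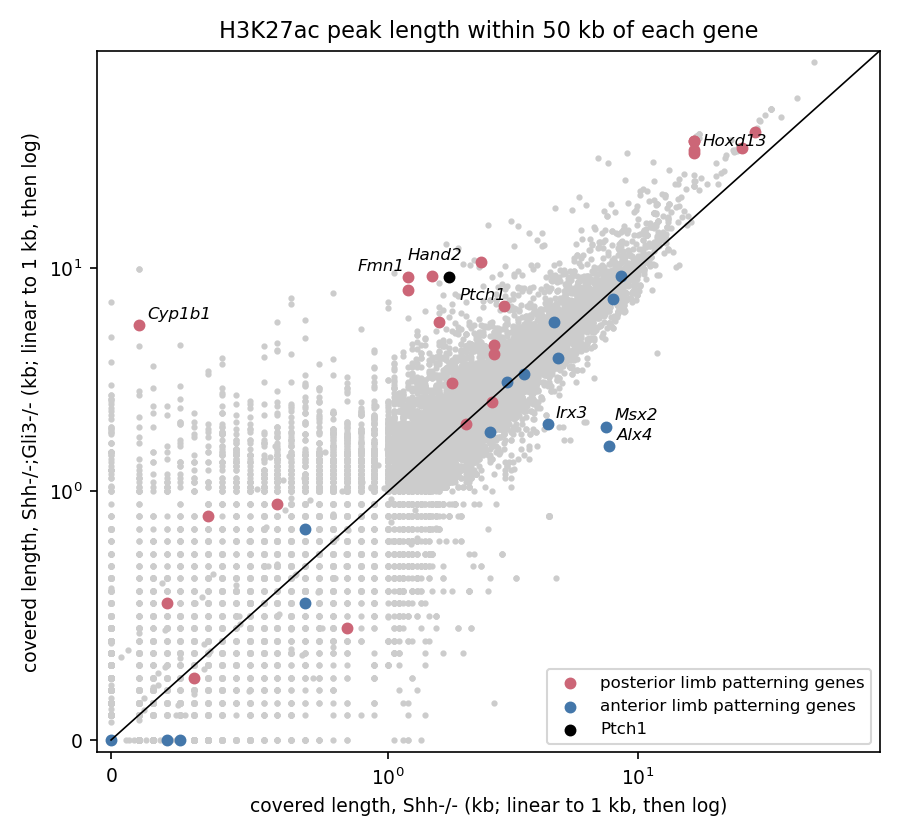
Covered length within 50 kb of each gene in Shh-/- (x) and Shh-/-;Gli3-/- (y) limb buds, in kb; grey points are all 17270 genes, and the line marks equal lengths. Hand2, Ptch1, Fmn1 and Cyp1b1 lie above the line, and Alx4, Msx2 and Irx3 below it.

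Among HH receptors and feedback antagonists, 1 of 7 (Ptch1) was called longer, against 4.35% of all genes. Smo, which encodes Smoothened, had 2800 and 4100 bp, and the co-receptor genes Boc and Cdon 2450 and 2500 bp and 5500 and 4550 bp. Of the GLI factors and intracellular components, 0 of 10 were called in either direction, against 4.35% longer and 0.706% shorter over all genes. Gli2 had 7000 and 12350 bp, and Gli1, often read as an HH target, 5050 and 5400 bp with no promoter peak in either list. Ptch1 was thus the 1 called gene among the pathway components. Gli2 and Gli3 differed 1.76-fold and 1.98-fold, and with peaks matched on width their differences turned to -1000 and -4650 bp. With narrowed peaks their differences were 2000 and 3100 bp.

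Proximal limb genes had 2 of 14 called longer, Hoxd9, which shares the Hoxd region, and Rarb (2400 and 5500 bp), with a median difference of 2875 bp, against 4.35% of all genes. With peaks matched on width the median was -2875 bp, 12 of 14 were shorter, and Hoxd9 turned to -7291 bp while Rarb stayed longer by 1350 bp. With narrowed peaks Hoxd9 and Rarb were longer by 9909 and 1750 bp. In the limb mesenchyme list Fgf10, the mesenchymal signal of limb outgrowth, was called, 1 of 15 (2300 and 10100 bp), and Lhx9 had 14650 and 10300 bp. The cartilage list had 3 of 14 longer, Sox5 (6750 and 14850 bp), Bmpr1b (1850 and 3800 bp) and Foxc1 (0 and 1650 bp). In the muscle list 2 of 9 were called longer, among them Eya1 (600 and 2800 bp), and Myod1 was at 0 bp in both lists. In the liver and gut list, of cell types outside the limb bud, 2 of 7 covered genes were called longer, Apob (0 and 1450 bp) and Ttr (100 and 1950 bp). These shares too lay above the 4.35% of all genes, on few members. Apob and Ttr had a promoter peak in neither list, and with windows of 10 kb their differences were 450 and -100 bp. None of 16 ectodermal, 13 endothelial and blood, 7 neural or 23 ubiquitously expressed genes was called in either direction, against the same 4.35% longer and 0.706% shorter of all genes, with medians of 0.0, 200, -50.0 and 450 bp. Windows around markers of other cell types were thus in part covered: the endothelial genes Fli1 had 5950 and 10150 bp, Pecam1 4250 and 4500 bp and Erg 2800 and 4500 bp, and Sox10, of the neural crest, 1750 and 1250 bp. These windows can include peaks of neighbouring genes. Fli1 and Erg had a promoter peak in both lists, Pecam1 in Shh-/-;Gli3-/- only and Sox10 in neither. Cdh5, Sox2, Foxa2 and Alb were at 0 bp in both lists. The part of these cell types in the results was not tested. Tbx5, of the forelimb, had 20950 and 23600 bp, and of the hindlimb genes Tbx4 had 4000 and 5500 bp and Pitx1 0 bp in both.

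**Figure D5:**
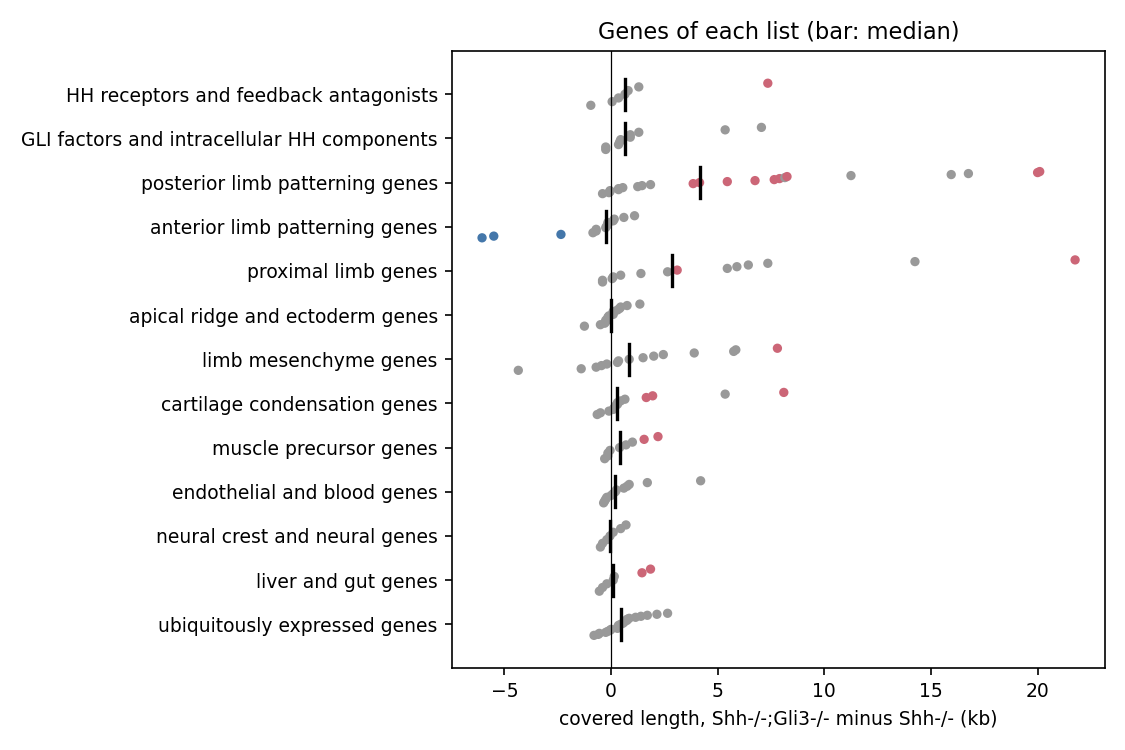
Difference in covered length, Shh-/-;Gli3-/- minus Shh-/-, in kb for each covered member of 13 gene lists; red points were called longer, blue points shorter and grey points neither, and black bars are medians. The posterior list has its median at 4150 bp and the anterior list at -225 bp.

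The 10 largest gains were taken 1 for each group of overlapping windows. Their sign also had to be the same in lists of equal size and of matched width. This rule left out Hoxd9 (17150 and 38909 bp), whose difference turned negative with width matching. The gains that remained were led by Gm20388, a read-through model enclosing many genes (50900 and 83350 bp). The X-linked Gpc3 (6950 and 31000 bp), a glypican, and Bcor (5800 and 20700 bp), a transcriptional corepressor, were among them. The autosomal genes were Lrmda (7600 and 29250 bp), Tenm4 (4650 and 18550 bp), Jazf1 (2500 and 15600 bp), Gpc6 (3100 and 16100 bp), Ppp1r9a (6200 and 19000 bp), Dgki (5450 and 18050 bp) and Fam172a (3300 and 15350 bp). In these 7 autosomal windows most of the gain was distal, as in Jazf1, whose promoter peaks covered 0 bp in both lists. Gains were ranked in bp over the whole gene and its flanks, so longer genes had more room for peaks. Over all peaks, covered length was 1.74 times as long at distal peaks and 1.12 times at promoter peaks. The widest peak in Jazf1 was 3800 bp in Shh-/-;Gli3-/- and 250 bp in Shh-/-.

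The 10 largest losses by the same rule included Ext2 (11900 and 4150 bp), whose window overlaps that of Alx4. Msx2 and Lhx9, given above, were also among them. Irf2bpl had 6200 and 2050 bp, Anapc16 6100 and 2050 bp, Nfatc1, a transcription factor of calcium signalling, 4700 and 650 bp, Nfia 6650 and 3200 bp, Itga11 5000 and 1950 bp and Hoxc9 11450 and 7950 bp. Gm13283 (5350 and 1700 bp) lies in a repeated gene cluster on chromosome 4, so its reads may be split between copies and its value is uncertain. Lhx9 and Hoxc9 were not called, because their lengths differed less than 2-fold.

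The GLI motif GACCACCCA, the letters GLI factors are known to bind, was searched on both strands in 300 bases around the strongest position of each distal peak. It was found in 0.238% (0.157 to 0.359%) of distal Shh-/- only peaks, 22 of 9261, and in 0.232% (0.167 to 0.323%) of distal Shh-/-;Gli3-/- only peaks, 35 of 15080. Distal peaks overlapped by the other list held it in 0.194% of cases in Shh-/- and 0.183% in Shh-/-;Gli3-/-. All distal peaks, which include the only-peaks, held it in 0.218% of cases in each list, and RefSeq promoters of the same length in 0.253%. The shares were thus close to each other, on few matches and without matching for GC content. A search for exact matches near the strongest position cannot decide whether GLI factors bound these peaks. The median GC content of the windows was 49.3% for Shh-/- only and 45.3% for Shh-/-;Gli3-/- only peaks. Around the HH and posterior limb genes, 160 distal Shh-/-;Gli3-/- only peaks and 44 Shh-/- only peaks were scanned over 300 bases and 0 held GACCACCCA. The relaxed motif was found in 1 of these windows, near Tbx3, outside the peak itself. Over whole peaks the relaxed motif GACCNCCCA was found in 1 Shh-/-;Gli3-/- only peak, 12.6 kb from the Hand2 start (chromosome 8, 57333550 to 57334399), shown with the match in capitals because it is the single such peak at a marker gene (GRCm38, plus strand, 101 bases).
Hand2 distal peak, chr8:57333970-57334070: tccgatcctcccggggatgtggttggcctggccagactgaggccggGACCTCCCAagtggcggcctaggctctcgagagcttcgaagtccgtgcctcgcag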

How the data were processed

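H3K27ac MicroChIP libraries and inputs of Shh-/- and Shh-/-;Gli3-/- forelimb buds were compared through the 1 peak list per genotype deposited by the authors. Per the labels, reads were aligned with Bowtie2 2.2.5 to mm10, and the study's methods give CisGenome for peak calling. The labels attach each list to replicate 1 and do not state pooling, while the methods mention 2 biological replicates. The authors deposited for each peak a score (the statistic that sets the file rank, lowest 3.00), a log2 fold over input, the −log10 of a Poisson p-value that stops at 100, and an FDR q-value up to 0.186 in Shh-/- and 0.109 in Shh-/-;Gli3-/-. Only rank and FDR were used to select peaks, and folds were not compared between lists, since each is relative to another input.

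Widths are in steps of 50 bp and positions as the lists give them, whose base is not stated. Overlaps (at least 1 bp) and covered lengths were computed with scipy 1.17.1, pandas 2.3.3 and numpy 2.4.6 (Python 3.11.15) and GENCODE M21 basic genes (GRCm38), and tested on simulated data. Named genes were the 4 markers, the 10 largest gains and losses whose sign was the same in lists of equal size and of matched width, up to 4 members of each gene list, the deleted genes, Actb, and the 5 highest-ranked only-peaks of each class. Other list members are named where a count needed them, after their values were seen. The members, lists and rule were chosen with earlier results of these data known. The alternatives were equal numbers of peaks by rank, lists matched on width, FDR below 0.05, reciprocal overlap of 50%, windows of 10 and 100 kb, scaling to the same total and the motif GACCNCCCA. Autosomes only, and equal numbers with Shh-/-;Gli3-/- peaks narrowed around their strongest position to Shh-/- widths, were chosen after seeing the data. The wild-type list was not used. Values of some list members are not reported here.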

Additional observations from a re-analysis of the deposited data

How the results depend on the processing

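No alternative had a value per replicate. No paired analysis was possible because the columns carry no replicate, and leaving out a replicate was not run for the same reason. The share of Shh-/- peaks overlapped was 60.2% with equal numbers of peaks, 49.2% with width matching, 68.9% at FDR below 0.05, 56.3% with narrowed peaks and 34.0% with reciprocal overlap. The share of Shh-/-;Gli3-/- peaks overlapped was 52.0%, 46.2%, 51.0% and 31.5% with equal numbers, width matching, narrowing and reciprocal overlap, and 50.3% on autosomes only. Promoters made up 30.9%, 28.9%, 28.0% and 34.4% of Shh-/- only peaks with width matching, FDR below 0.05, narrowing and reciprocal overlap, and 15.9% and 22.1% of Shh-/-;Gli3-/- only peaks at FDR below 0.05 and reciprocal overlap, so the Shh-/- share was the higher under each alternative. The promoter share of all peaks was also higher in the Shh-/- list, at 48.6% against 39.1% in the main setting. Longer genes numbered 438 with width matching, 317 with narrowing and 286 with scaling to the same total, and shorter genes 1274, 343 and 320, and 77 within 10 kb. The promoter ratio was 1.11 with equal numbers, 1.15 at FDR below 0.05 and 1.1 on autosomes, and it reversed to 0.870 with width matching and 0.839 with narrowing. The distal ratio was 1.69, 1.27, 2.0, 1.70 and 1.33 with equal numbers, width matching, FDR below 0.05, autosomes and narrowing. The relaxed motif gave 0.799% and 0.723% of distal Shh-/- only and Shh-/-;Gli3-/- only peaks. The Hoxd13 difference of 15950 bp reversed to -12900 bp with width matching, which by construction drops wide Shh-/-;Gli3-/- peaks with no Shh-/- peak of the same width, and was 5550 bp with narrowing. Hand2, Ptch1 and Hhip had longer covered length in Shh-/-;Gli3-/- in every alternative run for them, but the differences of Hand2 and Ptch1 were 3000 and 4000 bp with width matching, against 7650 and 7350 bp. The depth of the libraries is unknown and limits all of these values.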
